A study of Mus musculus with 20 samples.

Results

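Gfi1, Gfi1b and the 5 Ikaros family genes Ikzf1 to Ikzf5 encode DNA-binding zinc finger proteins of blood cells, and their chromatin was described here in Lin- bone marrow cells that lacked Ep300, Tet2, or both. The genes were chosen by name as a group of repressors, and every deposited peak that overlapped 1 of the 7 gene bodies or the 30 kb on either side was taken. This gave 1008 of the 591292 peaks in 12 lists, namely 199 of 95252 for H3K27ac, 652 of 389664 for H3K4me1 and 157 of 106376 for H3K4me3. By gene, the peaks numbered 123 at Gfi1, 95 at Gfi1b, 313 at Ikzf1, 219 at Ikzf2, 132 at Ikzf3, 72 at Ikzf4 and 54 at Ikzf5.

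The study asked how the loss of p300, a histone acetyltransferase encoded by Ep300, changes the enhancers of cells that lack the DNA dioxygenase Tet2, a gene often mutated in myeloid disease. Chromatin from Lin- bone marrow cells (cells depleted of mature blood lineages, with a stated purity above 80%) was immunoprecipitated for 3 histone marks in 4 genotypes of mice. The groups were WT (Ep300fl/fl without Cre), Ep300Δ/Δ (Mx1-Cre;Ep300fl/fl), Tet2-/- (Ep300fl/fl;Tet2-/-) and Ep300Δ/ΔTet2-/- (Mx1-Cre;Ep300fl/fl;Tet2-/-), which the labels call WT, p300 Knockout, Tet2 Knockout and p300 Tet2 Knockout. Each genotype and mark was 1 library, labelled as replicate 1, so no test between genotypes was possible and no genotype difference below has a replicate check. All genotypes received poly(I:C), which induces Mx1-Cre through interferon, so the controls carried floxed Ep300 and the treatment too. Mx1-Cre acts in many interferon-responsive cells and not in 1 cell type. The peak lists do not show the deletion itself. Age at collection and the number of mice behind a library were not given in the labels.

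GFI1 and GFI1B are closely related transcriptional repressors that recruit the lysine demethylase LSD1 (Kdm1a) with CoREST and histone deacetylases. GFI1 acts in stem cells, neutrophils and lymphoid precursors, GFI1B in erythroid cells and megakaryocytes, and each represses its own gene and the other. Ikaros (Ikzf1), Helios (Ikzf2), Aiolos (Ikzf3), Eos (Ikzf4) and Pegasus (Ikzf5) form dimers with each other, and Ikaros and Aiolos, which act in lymphoid development, work largely with the NuRD complex of Chd4. H3K27ac marks active promoters and enhancers, H3K4me1 marks enhancers and the flanks of promoters, and H3K4me3 marks promoters.

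Sequences of 6 regions and 1 promoter that the results turn on are given first. They are, for 5 of the genes, the H3K27ac region outside all promoters that ranked highest in any list (Ikzf4 and Ikzf5 had none), the highest ranked of the 4 Ikzf1 regions found in the Tet2-/- list alone, and the promoter of Gfi1b, whose acetylation differed between the lists. Each region is the 201 bases around the summit of its strongest peak, on the plus strand of mm10 (GRCm38), and the promoter is the 300 bases around a RefSeq start, on the strand of the gene (minus). Capitals mark exact matches, searched on both strands, to short cores of 5 factor families. The core used for GFI proteins was AAATCA and that for the Ikaros family was TGGGAA. For other blood regulators, the core used for GATA factors was AGATAA, that for RUNX factors was TGTGGT and that for ETS factors was CCGGAAG. No core contains another. Signed distances are from the outermost annotated start of the gene, positive in the direction of transcription.
Gfi1 −23.4 kb, in an intron of the neighbouring gene Evi5, chr5:107749461-107749661: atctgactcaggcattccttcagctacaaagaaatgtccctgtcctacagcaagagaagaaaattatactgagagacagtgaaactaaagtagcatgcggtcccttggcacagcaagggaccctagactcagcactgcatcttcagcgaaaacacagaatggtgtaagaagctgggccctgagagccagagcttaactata
Gfi1b +19.8 kb, intergenic and beyond the 3′ end of the gene, chr2:28602041-28602241: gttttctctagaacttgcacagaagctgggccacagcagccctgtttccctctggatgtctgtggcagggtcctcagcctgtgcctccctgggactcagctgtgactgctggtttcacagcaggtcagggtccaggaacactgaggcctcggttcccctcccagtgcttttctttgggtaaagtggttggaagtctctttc
Gfi1b promoter, chr2:28621933-28622232: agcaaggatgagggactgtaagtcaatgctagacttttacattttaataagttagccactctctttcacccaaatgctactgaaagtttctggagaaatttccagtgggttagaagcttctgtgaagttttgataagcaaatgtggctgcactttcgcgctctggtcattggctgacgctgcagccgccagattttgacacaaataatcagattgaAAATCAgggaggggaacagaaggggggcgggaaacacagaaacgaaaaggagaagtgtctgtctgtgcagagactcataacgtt
Ikzf1 −28.4 kb, in an intron of the noncoding gene Gm11999, chr11:11656646-11656846: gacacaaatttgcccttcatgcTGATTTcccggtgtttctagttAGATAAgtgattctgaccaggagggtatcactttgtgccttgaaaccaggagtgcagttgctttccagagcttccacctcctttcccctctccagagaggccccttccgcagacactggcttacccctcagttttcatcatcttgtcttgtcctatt
Ikzf1 +6.68 kb, intron of Ikzf1, chr11:11691364-11691564: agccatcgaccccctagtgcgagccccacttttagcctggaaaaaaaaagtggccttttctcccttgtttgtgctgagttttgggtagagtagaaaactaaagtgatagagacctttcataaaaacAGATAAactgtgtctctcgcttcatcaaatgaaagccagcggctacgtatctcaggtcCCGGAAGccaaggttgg
Ikzf2 +137 kb, intron of Ikzf2, chr1:69549682-69549882: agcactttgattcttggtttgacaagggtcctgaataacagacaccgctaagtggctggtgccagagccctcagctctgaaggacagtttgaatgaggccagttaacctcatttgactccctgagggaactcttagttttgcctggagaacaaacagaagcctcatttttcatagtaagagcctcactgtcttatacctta
Ikzf3 +75.9 kb, intron of Ikzf3, chr11:98470063-98470263: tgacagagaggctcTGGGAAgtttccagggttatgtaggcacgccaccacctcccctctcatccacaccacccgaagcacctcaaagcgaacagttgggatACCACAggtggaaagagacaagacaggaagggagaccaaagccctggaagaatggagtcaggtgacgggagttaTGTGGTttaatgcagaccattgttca

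The Gfi1, Gfi1b and Ikzf2 enhancer sequences held none of the 5 cores. The Ikzf3 sequence held 3 matches, to the Ikaros and RUNX cores, and the Ikzf1 sequence at −28.4 kb held a GFI and a GATA core. The Gfi1b promoter held 1 GFI core. Of 32851 RefSeq mouse promoters of this length, 14.0% held a GFI core, 25.6% an Ikaros core, 11.2% a GATA core, 16.8% a RUNX core and 8.86% an ETS core. Across all 65 WT H3K27ac peaks at the 7 genes, a GFI core lay within 100 bp of the summit of 7 (10.8%, exact 95% interval 4.44% to 20.9%), beside 5.96% of all WT H3K27ac peaks. An Ikaros core lay in 11 (16.9%, 8.76% to 28.3%), beside 19.2% of all peaks. For GATA, RUNX and ETS the member peaks held a core in 7.69%, 12.3% and 4.62%, beside 5.45%, 12.9% and 3.33%. In Tet2-/- cells the GFI core lay in 5 of 48 member peaks (10.4%, 3.47% to 22.7%) beside 5.4% of all peaks, and the GATA core in 6 (12.5%, 4.73% to 25.2%) beside 5.0%. The Ikaros, RUNX and ETS cores lay in 22.9%, 16.7% and 4.17% of them, beside 19.1%, 12.3% and 3.99%. These shares changed with the window. Within 250 bp of the summit, the Ikaros core lay in 49.2% of WT member peaks beside 38.6% of all, the ETS core in 6.15% beside 11.3%, and the GATA core of Tet2-/- cells in 16.7% beside 16.7%. The GFI core then lay in 29.2% of member peaks in both genotypes, beside 18.0% in WT and 16.5% in Tet2-/- cells. The GATA and RUNX cores lay in 20% and 26.2% of WT member peaks beside 18.0% and 30.5%, and the Ikaros, RUNX and ETS cores in 41.7%, 27.1% and 6.25% of Tet2-/- member peaks beside 38.1%, 29.2% and 12.8%. A match is a description of the letters and not a bound site.

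The lists held 18327 to 29659 peaks for H3K27ac, 90738 to 107392 for H3K4me1 and 25012 to 27807 for H3K4me3, and read depth is not recorded in them. Fold enrichment was called against histone H3 in each library, so it is not on 1 scale across lists. Strength is therefore given as a percentile, the share of peaks in the same list with a lower fold enrichment. Since a longer list can hold more weak peaks, which raises the percentile, the order of a region between lists was also read from the number of stronger peaks in each list. At the promoters of marker genes, H3K27ac was present in 5, 5, 4 and 4 of 6 stem and progenitor genes in WT, Ep300Δ/Δ, Tet2-/- and Ep300Δ/ΔTet2-/- cells, among them Kit and Flt3 in every list. It was present in 1, 1, 1 and 0 of 4 B cell genes, in 2 of 5 T cell genes in every list (Cd3d and Lck), in 2, 1, 1 and 0 of 5 neutrophil genes, in 4, 5, 5 and 4 of 5 erythroid and megakaryocyte genes, and in 0 of 5 genes of other tissues. Fewer cells of a type and less acetylation per cell cannot be told apart in these bulk samples.

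**Figure D1:**
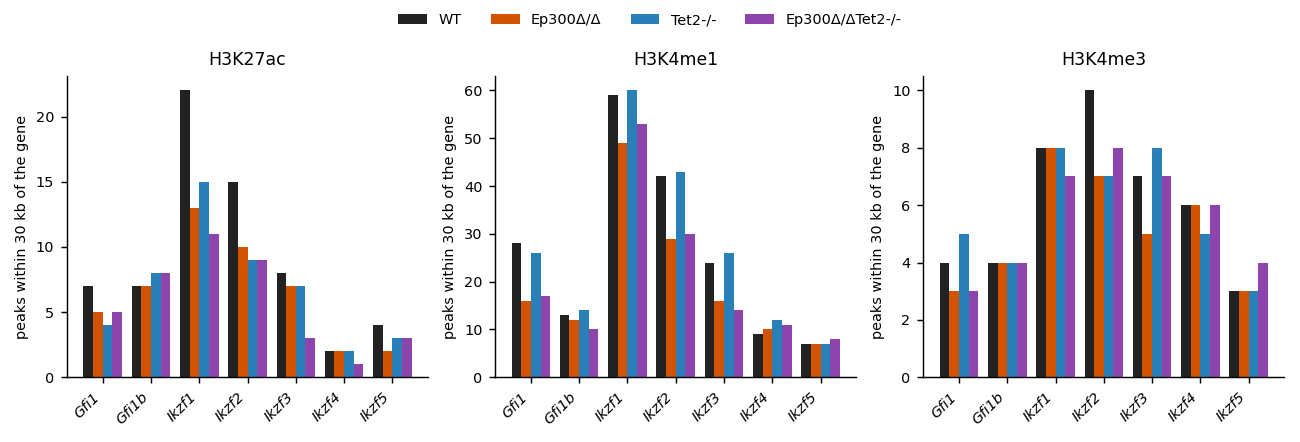
Number of deposited peaks within 30 kb of each gene (y axis) for the 7 genes (x axis), with 1 panel for each mark and 1 bar for each library. Ikzf1 held 22 H3K27ac peaks in WT cells and 11 to 15 in the others, and Gfi1b held 7 or 8 in every list.

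By mark, the 7 genes held 65, 46, 48 and 40 H3K27ac peaks in WT, Ep300Δ/Δ, Tet2-/- and Ep300Δ/ΔTet2-/- cells, 182, 139, 188 and 143 H3K4me1 peaks, and 42, 36, 40 and 39 H3K4me3 peaks. The plot of peak numbers by gene shows where these peaks lay, and both H3K4me1 totals from Ep300-deleted cells were below both totals from cells with Ep300. With Ep300 deletion the number of H3K4me1 peaks at the 7 genes decreased by 23.6% on the WT background, where the whole list decreased by 15.5%. On the Tet2-/- background it decreased by 23.9% and the whole list decreased by 4.69%. H3K27ac peaks at the 7 genes decreased by 29.2% on the WT background (whole list −23.4%) and, on the Tet2-/- background, by less than the whole list (−16.7% and −25.3%). The changes for H3K4me3 were −14.3% (whole list −4.86%) and −2.5% (−1.94%). Active enhancers, meaning H3K27ac peaks outside all promoters that overlapped H3K4me1, numbered 33 in WT, 21 in Ep300Δ/Δ, 16 in Tet2-/- and 11 in Ep300Δ/ΔTet2-/- cells, beside 9505, 5093, 6548 and 3720 in the genome. They made up 50.8%, 45.7%, 33.3% and 27.5% of the H3K27ac peaks at the 7 genes, beside 32%, 22.4%, 26.7% and 20.3% of all H3K27ac peaks, and both series were lowest in the doubly deficient cells. The H3K27ac peaks at the 7 genes together covered 38.4, 21.6, 27.4 and 21.8 kb in the order WT, Ep300Δ/Δ, Tet2-/- and Ep300Δ/ΔTet2-/-. All H3K27ac peaks of the lists covered 18.7, 11.5, 15.0 and 11.9 Mb.

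Gfi1 (ENSMUSG00000029275.18, chr5:107716657-107726036, minus strand) kept H3K27ac at its promoter and at 2 distal sites in all 4 genotypes, but the distal site upstream ranked lower where Ep300 was deleted. This region, at −23.4 kb (chr5:107749221-107749723), stood at percentile 87.1 in WT and 76.5 in Tet2-/- cells, and at 47.2 in Ep300Δ/Δ and 36.7 in Ep300Δ/ΔTet2-/- cells. In the same order of WT, Tet2-/-, Ep300Δ/Δ and Ep300Δ/ΔTet2-/- cells, 3827, 5753, 11979 and 11576 peaks of the list were stronger. Both lists with Ep300 were above both lists without it on either scale. The downstream region at +27 kb, over an exon of the noncoding gene 4930428O21Rik, did not share this order, at 73.8 in WT, 84.8 in Ep300Δ/Δ, 62.5 in Tet2-/- and 68.9 in Ep300Δ/ΔTet2-/- cells. The 2 promoter regions of Gfi1 also lie near the start of the noncoding gene A430072P03Rik. The larger, 2734 bp, stood at 49.2, 47.4, 26.6 and 25.3 in WT, Ep300Δ/Δ, Tet2-/- and Ep300Δ/ΔTet2-/- cells. With 15063, 11952, 18013 and 13690 stronger peaks, it held no lower place in the doubly deficient list than in WT. The smaller stood at 46.4, 60.5, 41.8 and 37.3.

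Fewer H3K4me1 peaks were called around Gfi1 in both lists without Ep300. The window held 28 H3K4me1 peaks in WT and 26 in Tet2-/- cells, but 16 in Ep300Δ/Δ and 17 in Ep300Δ/ΔTet2-/- cells. Merged over the 4 lists these were 28 regions, of which 23, 10, 22 and 11 were present in WT, Ep300Δ/Δ, Tet2-/- and Ep300Δ/ΔTet2-/- cells. Of the 28, 8 were in both lists with Ep300 and in neither without it, a pattern held by 19 of the 221 H3K4me1 regions at all 7 genes and by 5.71% of the H3K4me1 regions in the genome. Of these 8, 4 lay beyond the gene and outside promoters, at +18.5, +14.5, −5.82 and −22.3 kb. Beside the start, the region at −2.88 kb stood at percentile 88.6 in WT and 79.7 in Tet2-/- cells, and at 0.697 and 18.9 in Ep300Δ/Δ and Ep300Δ/ΔTet2-/- cells.

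At the Gfi1 start itself the order was the opposite. No H3K4me1 peak covered the start in WT or Tet2-/- cells, and 1 covered it in Ep300Δ/Δ and in Ep300Δ/ΔTet2-/- cells. The region over the start, chr5:107722796-107726687, stood at percentile 47.7 and 15.0 in WT and Tet2-/- cells, where its peaks stopped short of the start, and at 70.5 and 71.8 in the lists without Ep300. Among 9592 coding genes with H3K4me3 over the start in all 4 lists, 1.03% had H3K4me1 over the start in both lists without Ep300 and in neither with it, and Gfi1 was the only 1 of the 7 genes with that pattern. This reading of the start was chosen after its values were seen. H3K4me3 formed a region of 4646 bp over the same start in all 4 lists, at percentile 64.8 in WT, 57.4 in Ep300Δ/Δ, 51.9 in Tet2-/- and 53.8 in Ep300Δ/ΔTet2-/- cells. Ep300Δ/Δ and Ep300Δ/ΔTet2-/- cells lacked 2 H3K4me3 regions farther into the gene, at +4 and +4.88 kb. The first was in the WT list alone and the second in WT and Tet2-/- cells.

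**Figure D2:**
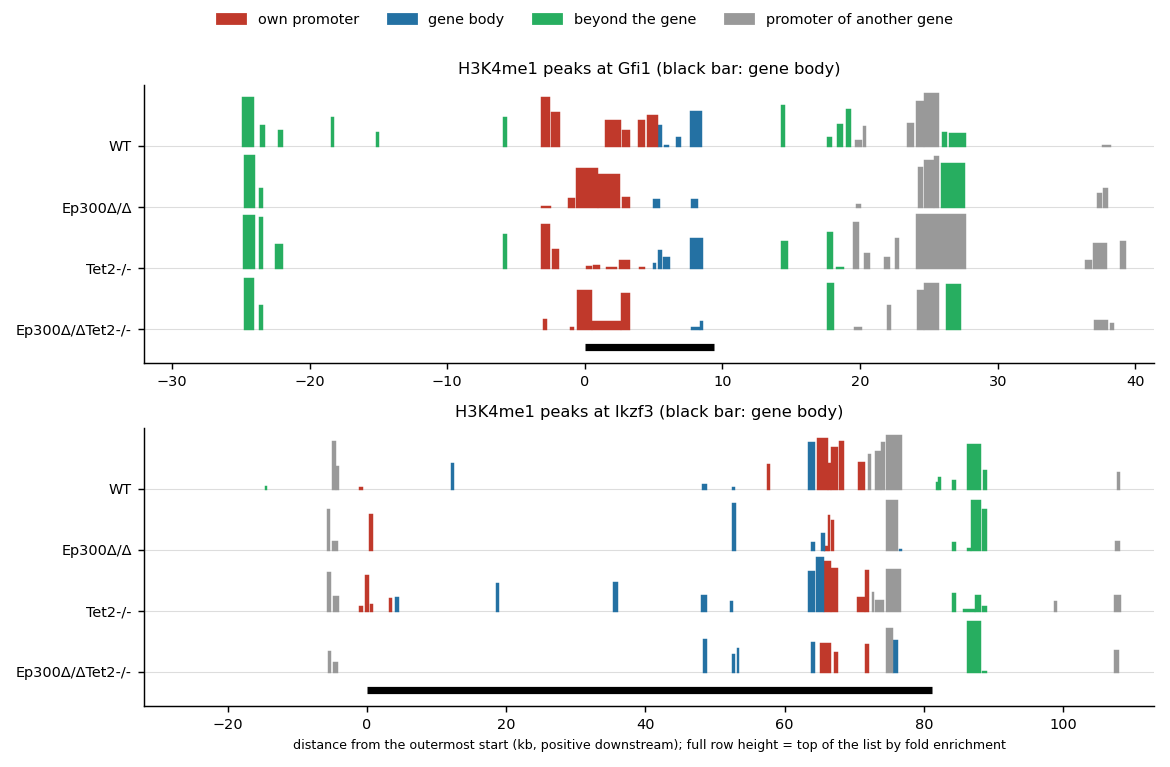
H3K4me1 peaks at Gfi1 and Ikzf3 in the 4 libraries, by distance from the outermost start in kb (x axis), with 1 row for each genotype, bar height for the percentile within the list and colour for the class of the peak. At Gfi1 the 2 rows without Ep300 held a peak over the start and fewer peaks around it (16 and 17 peaks in the window, beside 28 and 26), and Ikzf3 held 24, 16, 26 and 14 peaks from top to bottom.

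Gfi1b (ENSMUSG00000026815.14, chr2:28609450-28621982, minus strand) had, in all lists but Ep300Δ/Δ, the most acetylated window of the 7 genes relative to its length, but little of this lay at its own promoter. H3K27ac covered 10.5%, 4.72%, 11.4% and 6.15% of the window in WT, Ep300Δ/Δ, Tet2-/- and Ep300Δ/ΔTet2-/- cells, which was more than in 97.1%, 92.2%, 99.2% and 96.2% of 21911 coding genes. The window also holds the promoters of Gtf3c5 and Tsc1, and the Tsc1 promoter alone stood at percentile 98.6, 98.3, 93.4 and 91.0. Of the 4 H3K27ac regions at the Gfi1b promoter, 2 were present in WT, 0 in Ep300Δ/Δ, 3 in Tet2-/- and 1 in Ep300Δ/ΔTet2-/- cells. The region nearest the start, at +0.193 kb, was in the WT list alone, at percentile 48.9. The region at +2.87 kb was in the 2 lists with Ep300, at 29.2 in WT and 25.3 in Tet2-/- cells, and that at +0.88 kb in the 2 lists without Tet2, at 29.2 in Tet2-/- and 14.9 in Ep300Δ/ΔTet2-/- cells. These were peaks of low to middle rank. With the 4 lists cut to the 18327 peaks of lowest q each, the region at +2.87 kb was in none of them. This cut ranked peaks by q and not by fold enrichment.

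Downstream of Gfi1b 2 regions were acetylated in every genotype. The region at +19.8 kb (chr2:28601452-28602832) stood at percentile 71.7, 71.9, 58.6 and 35.4 in WT, Ep300Δ/Δ, Tet2-/- and Ep300Δ/ΔTet2-/- cells. Its neighbour at +23.3 kb, near the start of the noncoding gene Gm22675, stood at 63.2, 48.7, 48.0 and 11.8. Both ranked lowest in the doubly deficient list, also by the number of stronger peaks (11843 and 16133 there). Under both lay 1 H3K4me1 region of 6832 bp, present in all 4 lists at 92.8, 99.6, 82.7 and 93.2, so the H3K4me1 rank did not share the order of the acetylation. H3K4me3 covered the Gfi1b start with a region of 4663 bp in every list, at 78.4, 58.2, 63.1 and 78.9. Gfi1b, which had no H3K27ac peak at its promoter in Ep300Δ/Δ cells, thus kept H3K4me3 there.

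**Figure D3:**
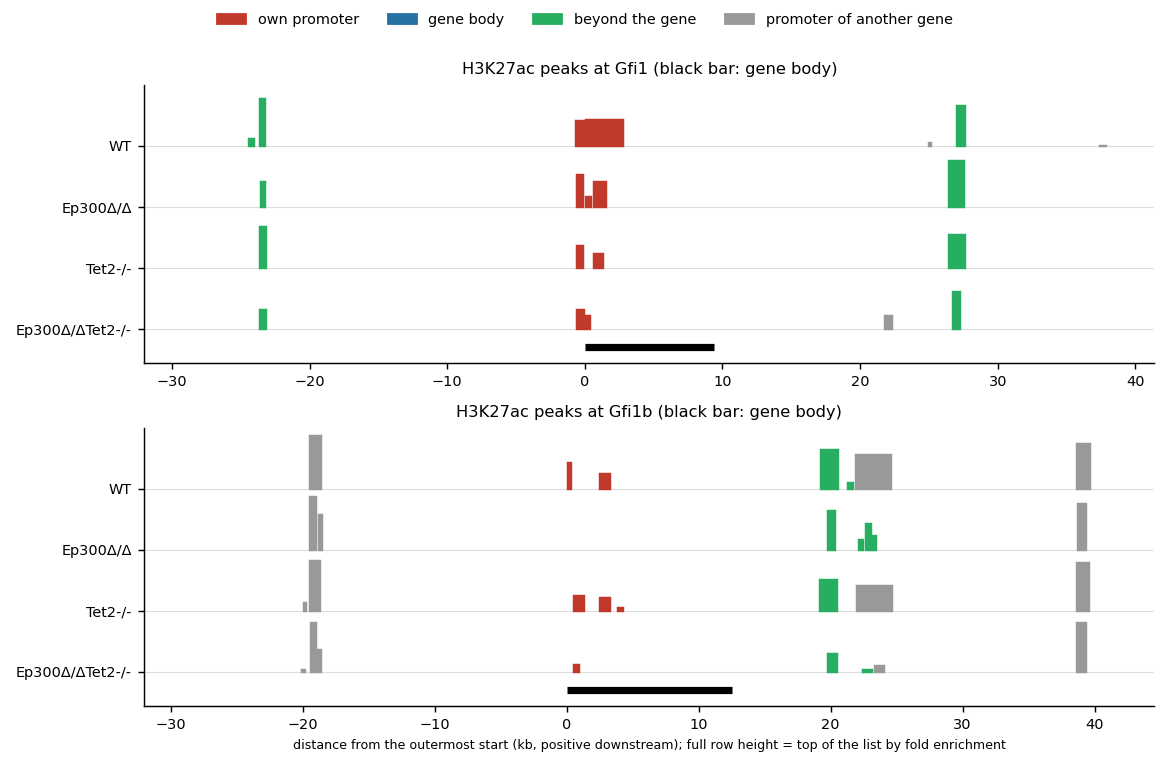
H3K27ac peaks at Gfi1 and Gfi1b in the 4 libraries, by distance from the outermost start in kb (x axis), with 1 row for each genotype, bar height for the percentile within the list and colour for the class of the peak. Gfi1 had promoter peaks in every row, and Gfi1b had none in the Ep300Δ/Δ row while its downstream peaks near +20 kb were in all rows.

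Ikzf1 (ENSMUSG00000018654.17, chr11:11685003-11772926, plus strand), which encodes Ikaros, held a block of H3K27ac from its promoter into the gene body in all 4 genotypes and a scatter of weak intronic peaks, most often called in WT cells. Its peaks numbered 22, 13, 15 and 11 in WT, Ep300Δ/Δ, Tet2-/- and Ep300Δ/ΔTet2-/- cells and formed 28 regions. Of these, 8 were in all 4 lists and 10 in the WT list alone. With the 4 lists cut by q to 18327 peaks each, the 10 were in none of them, and the regions outside promoters of other genes numbered 9, 8, 10 and 11. Over the 7 genes 26 of 78 H3K27ac regions (33.3%) were in all 4 lists and 22 (28.2%) in the WT list alone, beside 35.5% and 21.1% of the regions in the genome. The region over an exon at +1.74 kb, the highest ranked in all lists but Ep300Δ/ΔTet2-/-, stood at percentile 94.0, 87.3, 95.3 and 84.1. The region at +3.07 kb, at 88.3, 53.0, 78.8 and 90.7, was the highest ranked in that list. This region, its neighbour at +4.09 kb and 2 more in an intron, at +5.4 and +6.68 kb, were also in every list. The last of these stood at 68.4, 67.6, 51.7 and 55.3. At the outermost start, the region at +0.215 kb was missing in Ep300Δ/Δ cells and stood at 34.5 in WT, 71.3 in Tet2-/- and 39.1 in Ep300Δ/ΔTet2-/- cells.

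Far from the Ikzf1 promoter the genotypes diverged. The region at −28.4 kb was in the Tet2-/- list alone, at percentile 58.9. Next to it the region at −27.4 kb stood at 49.5 in Tet2-/- cells and at 4.91, 2.54 and 4.31 in WT, Ep300Δ/Δ and Ep300Δ/ΔTet2-/- cells. Both regions were thus of middle rank in Tet2-/- cells and low or not called in the other lists. In contrast, the region at −16.8 kb was missing in Tet2-/- cells and stood at 67.0 in WT, 29.5 in Ep300Δ/Δ and 1.85 in Ep300Δ/ΔTet2-/- cells. Within the gene, the region at +40.7 kb was in WT (45.2) and Ep300Δ/Δ cells (28.6) and in neither list without Tet2. The region at +44.1 kb stood at 53.5 and 46.2 in WT and Tet2-/- cells and at 2.36 and 23.0 in Ep300Δ/Δ and Ep300Δ/ΔTet2-/- cells. By the number of stronger peaks (13741, 22170, 13200 and 14094 in WT, Ep300Δ/Δ, Tet2-/- and Ep300Δ/ΔTet2-/- cells), it stood apart in Ep300Δ/Δ cells alone. At +78.3 kb, near the 3′ end, a region was kept in every list at 48.6, 44.4, 61.9 and 63.8. H3K4me1 was present in all 4 lists at each of these distal regions, whether or not H3K27ac was. H3K4me1 covered 30.6%, 26.7%, 32.3% and 26.2% of the Ikzf1 window, more than in 98.0% to 98.7% of coding genes in every list. The H3K4me3 region over an exon of Ikzf1, at +1.53 kb, stood at 76.0, 91.3, 96.3 and 72.1, and that over its outermost start at 66.4, 64.8, 75.7 and 59.1. Promoter H3K4me3 was thus called in every genotype, also in Ep300Δ/Δ and Ep300Δ/ΔTet2-/- cells, where no H3K27ac peak covered the outermost start.

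Ikzf3 (ENSMUSG00000018168.8, chr11:98464902-98546031, minus strand), which encodes the B cell factor Aiolos, had H3K27ac outside the promoters of other genes in every list but that of the doubly deficient cells. Leaving aside promoters of other genes, its window held 6 H3K27ac regions, of which 5 were in WT, 4 in Ep300Δ/Δ, 4 in Tet2-/- and 0 in Ep300Δ/ΔTet2-/- cells. The 3 peaks left in the Ep300Δ/ΔTet2-/- list lay at the promoters of Mien1 and Zpbp2. The intronic region at +75.9 kb (chr11:98469943-98470388) stood at percentile 61.2 in WT, 12.7 in Ep300Δ/Δ and 43.7 in Tet2-/- cells. Beyond the gene, the region at +87.7 kb stood at 46.8, 3.56 and 32.6 in the same 3 lists. Its nearest start, 4207 bp away, is that of the neighbouring gene Grb7, and H3K4me3 overlapped it in all 4 lists. The region at +87.0 kb also lies nearest Grb7 (5082 bp), so these regions may not belong to Ikzf3. An internal start at +69.0 kb was acetylated in WT (60.4) and Tet2-/- cells (4.75) only, and an intronic region near the outermost start, at +0.528 kb, in Ep300Δ/Δ cells only (29.4). No H3K27ac peak covered the outermost start of Ikzf3 in any list. With the 4 lists cut by q to 18327 peaks each, 3, 0, 2 and 0 of the 6 regions remained in WT, Ep300Δ/Δ, Tet2-/- and Ep300Δ/ΔTet2-/- cells. Both lists without Ep300 then had none. By fold enrichment, however, the region at +0.528 kb had 16039 stronger peaks in the Ep300Δ/Δ list, so it was dropped for its q alone.

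The other marks at Ikzf3 were still called in doubly deficient cells. H3K4me3 lay over the outermost start in all 4 lists, at 55.5, 55.5, 62.8 and 34.6, and over the internal start at 46.4, 8.44, 11.8 and 10.8. H3K4me1 numbered 24 and 26 peaks in WT and Tet2-/- cells and 16 and 14 in Ep300Δ/Δ and Ep300Δ/ΔTet2-/- cells. The ratio of the Ep300Δ/ΔTet2-/- to the Tet2-/- number was 0.538. Of 12050 coding genes with 5 or more such peaks in Tet2-/- cells, 4.27% had a lower ratio, and the median ratio was 1.0. On the WT background the ratio for Ikzf3 was 0.667, with 18.6% of 12390 genes lower and a median of 0.857. The H3K4me1 regions at +86.9 and +75.6 kb, under the acetylated sites, were in all 4 lists, at 93.6 and 79.3 in the doubly deficient one. Of the 4 B cell marker genes, the Cd79b promoter had H3K27ac in all lists but Ep300Δ/ΔTet2-/-, while Cd79a, Ebf1 and Pax5 had none in any list. The part of B cell content in the Ikzf3 values was not tested.

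Ikzf2 (ENSMUSG00000025997.13, chr1:69531214-69687245, minus strand), which encodes Helios, held more promoter regions in the doubly deficient list than in WT and, in the lists as deposited, fewer in its long gene body. The promoter held 4, 5, 6 and 7 of its 7 H3K27ac regions in WT, Ep300Δ/Δ, Tet2-/- and Ep300Δ/ΔTet2-/- cells, while the gene body held 8, 2, 2 and 1 of 9 regions. The promoter counts include weak peaks. The region at +2.91 kb stood at percentile 0.409 in Ep300Δ/ΔTet2-/- cells, with a −log10 q of 0.712. With a −log10 q of at least 5 it was in no list, and that at +2.38 kb was in WT and Tet2-/- cells only. These regions are close neighbours, so their number also depends on how the promoter was split into peaks. With the 4 lists cut by q to 18327 peaks each, the gene body held 1 region in every list. It was the region at +137 kb in WT and that at +30 kb in the other lists. The difference in number was thus one of peaks weaker by q, but WT then shared no gene body region with the other lists. Distal regions were also lost more often than promoter regions in the genome, in 62.5% against 26.5% of cases from WT to Ep300Δ/Δ and in 55.3% against 24.1% from WT to Tet2-/- cells. All 6 Ikzf2 regions found in the WT list alone were in introns. The strongest of them, at +137 kb, stood at percentile 56.1 and the next, at +6.78 kb, at 41.7. At +137 kb H3K4me1 too was called in the WT list alone. In the lists of equal length the H3K27ac region at +137 kb was the only 1 of the 6 still in the WT list. At the promoter, the region at −0.615 kb stood at 81.0, 87.6, 89.7 and 82.2, and that at +1.2 kb at 67.5, 80.2, 76.8 and 90.0. Another region in every list, at +2.38 kb, stood lower in both lists without Ep300, at 64.3, 30.3, 52.6 and 17.4. The region at +1.94 kb was in the 2 lists without Tet2 (50.5 in Tet2-/-, 57.5 in Ep300Δ/ΔTet2-/- cells), and that at +4.09 kb in all but WT (49.2, 50.5 and 63.4). In the first part of the gene body, the region at +30 kb stood at 9.14 in WT, 30.3 in Ep300Δ/Δ, 47.5 in Tet2-/- and 54.2 in Ep300Δ/ΔTet2-/- cells. H3K4me3 at the start, a region of 3475 bp, stood at 80.0, 81.5, 91.6 and 98.2, lowest in WT and highest in the doubly deficient list, while the H3K4me3 region next to it, at −0.77 kb, stood at 84.1, 97.0, 92.8 and 91.3. H3K4me1 peaks over the window numbered 42, 29, 43 and 30.

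**Figure D4:**
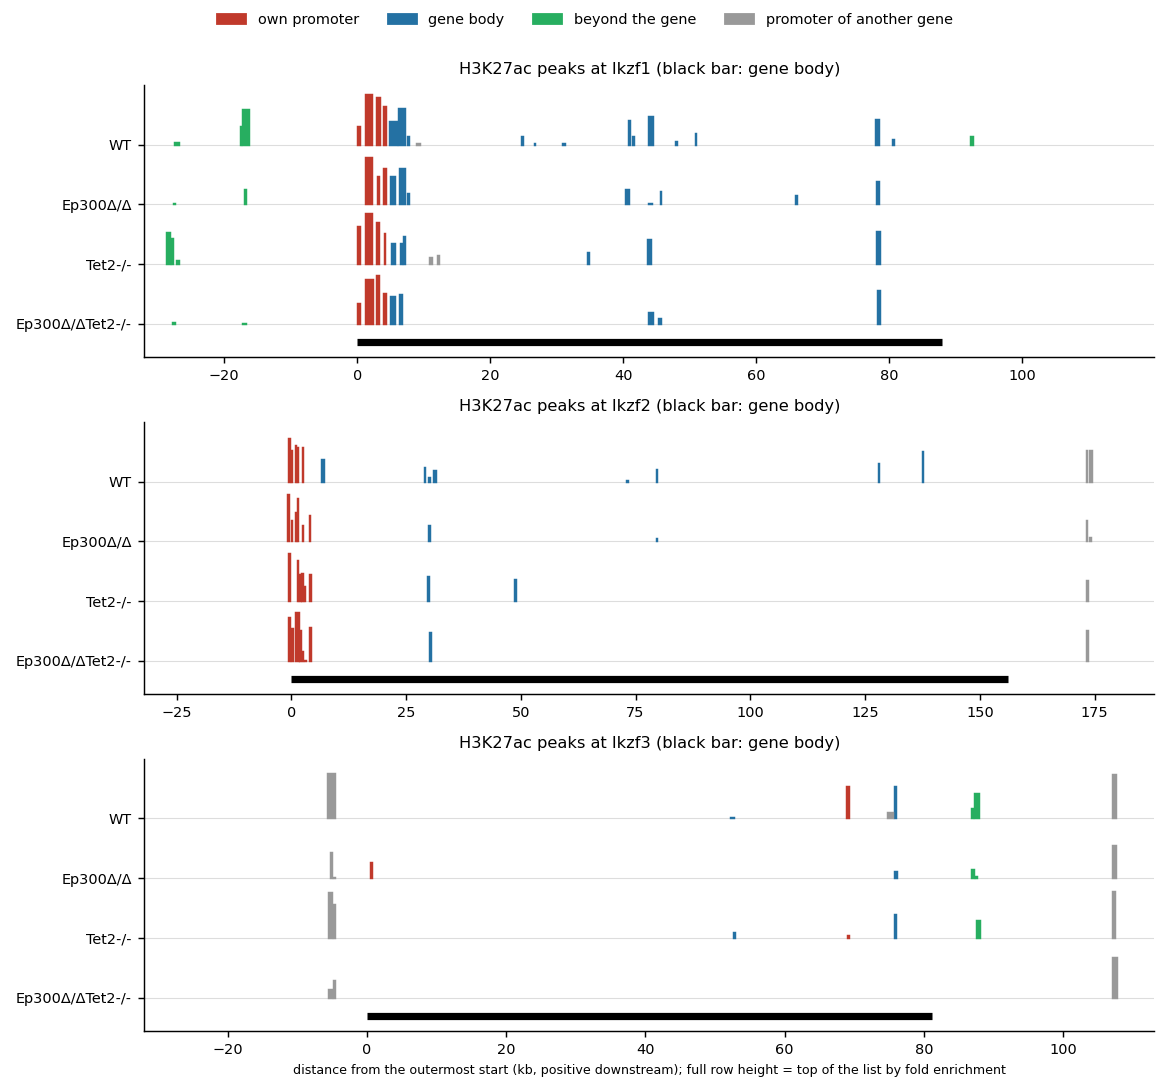
H3K27ac peaks at Ikzf1, Ikzf2 and Ikzf3 in the 4 libraries, by distance from the outermost start in kb (x axis), with 1 row for each genotype, bar height for the percentile within the list and colour for the class of the peak. The promoter blocks of Ikzf1 and Ikzf2 were in every row, most scattered intronic peaks were in the WT row, and the Ep300Δ/ΔTet2-/- row of Ikzf3 held only peaks at promoters of other genes.

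Ikzf4 (ENSMUSG00000002578.17, chr10:128630843-128645991, minus strand), which encodes Eos, had no H3K27ac peak of its own in any of the 4 lists. The 2 acetylated regions of its window were the promoter of the ribosomal protein gene Rps26, at percentile 95.8, 90.2, 95.8 and 92.4, and that of Suox, at 28.5, 49.6 and 69.8 and missing in Ep300Δ/ΔTet2-/- cells. H3K4me3 was present at the Ikzf4 promoter in all 4 lists, though the WT peak stopped short of the outermost start, at 38.9 in WT, 48.2 in Ep300Δ/Δ, 52.3 in Tet2-/- and 49.1 in Ep300Δ/ΔTet2-/- cells. An H3K4me1 region at +0.295 kb was in all lists but WT. Its H3K4me1 peaks numbered 9, 10, 12 and 11.

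Ikzf5 (ENSMUSG00000040167.16, chr7:131388652-131410521, minus strand), which encodes the divergent family member Pegasus, shares its promoter region with Acadsb, a gene of fatty acid and branched-chain metabolism. The H3K27ac region over its start was strong in every list, at percentile 94.9, 93.2, 91.2 and 89.3, as was the H3K4me3 region of 2296 bp, at 91.7, 88.3, 96.6 and 91.6. A second acetylated region, at −0.349 kb over the Acadsb side, was missing in Ep300Δ/Δ cells and stood at 31.7 in WT, 67.3 in Tet2-/- and 50.6 in Ep300Δ/ΔTet2-/- cells. No H3K27ac region was found in the gene body. Ikzf5 thus had 4, 2, 3 and 3 H3K27ac peaks and 7, 7, 7 and 8 H3K4me1 peaks.

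The 7 genes were next compared with the genome by counting regions lost or gained between 2 lists, that is, regions with no base of overlap in the other list. The 95% intervals are exact (Clopper-Pearson) and reflect only the counting error. After Ep300 deletion on the WT background, 27 of 64 H3K27ac regions at the 7 genes were lost (42.2%, 29.9% to 55.2%) beside 39.7% of the genome, and 4 of 41 were gained (9.76%) beside 12.8%. On the Tet2-/- background 16 of 48 were lost (33.3%, 20.4% to 48.4%) beside 37.8%, and 6 of 38 gained (15.8%) beside 15.0%. The share lost at the 7 genes was thus near that of the genome on both backgrounds. By gene, the losses on the Tet2-/- background were 1 of 4 regions at Gfi1, 2 of 8 at Gfi1b, 6 of 15 at Ikzf1, 2 of 9 at Ikzf2, 4 of 7 at Ikzf3, 1 of 2 at Ikzf4 and 0 of 3 at Ikzf5. H3K4me1 was called at 20 of the 27 lost regions in Ep300Δ/Δ cells (74.1%, genome 73.5%) and at 14 of the 16 in Ep300Δ/ΔTet2-/- cells (87.5%, genome 71.9%). It was called at 24 of the 27 in WT and at 14 of the 16 in Tet2-/- cells, not always at the same regions.

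Loss of Tet2 on the WT background was accompanied by the loss of 30 of 64 H3K27ac regions (46.9%, 34.3% to 59.8%) beside 35.6% of the genome. When a −log10 q of 5 or more was required the share was 28.6%, beside 29.8% of the genome. Of the 30 regions lost in the lists as deposited, most were at Ikzf1 (13 of 22) and Ikzf2 (10 of 15). In the same comparison 12 of 46 regions were gained (26.1%) beside 20.3%, 5 at Ikzf1, 4 at Ikzf2 and 3 at Gfi1b. In cells without Ep300, Tet2 loss went with 11 of 44 regions lost (25.0%) beside 31.2% and 7 of 40 gained (17.5%) beside 18.5%. All 7 gained regions were at promoters, 7 of 28 (25.0%, 10.7% to 44.9%) beside 12.5% of the genome, and 0 of 12 outside promoters (upper limit 26.5%) were gained, beside 37.8%. These promoters include those of neighbouring genes, such as 4930428O21Rik near Gfi1 and Tsc1 near Gfi1b. Losses outside promoters were 18 of 34 (52.9%) beside 62.5% from WT to Ep300Δ/Δ, 9 of 17 (52.9%) beside 61.9% from Tet2-/- to Ep300Δ/ΔTet2-/-, 22 of 34 (64.7%) beside 55.3% from WT to Tet2-/- and 7 of 19 (36.8%) beside 51.6% from Ep300Δ/Δ to Ep300Δ/ΔTet2-/- cells. At promoters they were 30%, 22.6%, 26.7% and 16.0%, beside 26.5%, 26.8%, 24.1% and 24.2%. Only 3 of 78 H3K27ac regions (3.85%) were in both lists with Ep300 and in neither without it, beside 6.54% of the genome. These were at the Gfi1b promoter (+2.87 kb) and at Ikzf3 (+69.0 and +52.5 kb).

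For H3K4me1, 66 of 169 regions were lost after Ep300 deletion on the WT background (39.1%, 31.7% to 46.8%) beside 36.7% of the genome, and 27 of 130 were gained (20.8%) beside 24.1%. On the Tet2-/- background 66 of 178 were lost (37.1%, 30% to 44.6%) beside 31.1%. Gains on that background were 14 of 126 (11.1%, 6.21% to 17.9%) beside 23.4%, and the genome share lay above this interval. Gfi1 lost 14 of 26 regions on the WT background and 13 of 24 on the Tet2-/- background, and Ikzf3 lost 12 of 23 and 12 of 24. Ikzf1 lost 14 of 53 and 15 of 56. Tet2 loss went with 36 of 159 regions lost (22.6%) beside 28.6% and 56 of 179 gained (31.3%) beside 26.8% on the WT background. In cells without Ep300 it went with 30 of 130 lost (23.1%) beside 26.2% and 35 of 135 gained (25.9%) beside 29.5%.

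H3K4me3 differed least between lists. Ep300 deletion went with 9 of 41 regions lost (22.0%) beside 15.4% and 1 of 33 gained (3.03%) beside 11.1% on the WT background, and with 5 of 40 lost (12.5%) beside 13.3% and 4 of 39 gained (10.3%) beside 9.45% on the Tet2-/- background. Tet2 loss went with 6 of 41 lost (14.6%) beside 11.1% and 3 of 38 gained (7.89%) beside 13.6% in cells with Ep300, and with 1 of 34 lost (2.94%) beside 10.3% and 4 of 37 gained (10.8%) beside 13.2% in cells without it. The H3K4me3 region at the outermost start of each member was in all 4 lists.

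**Figure D5:**
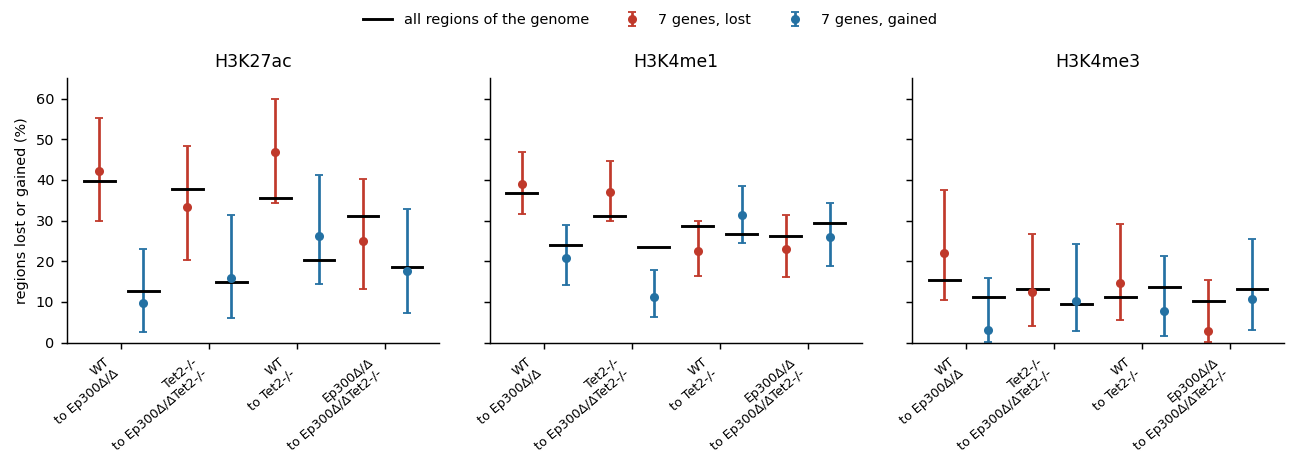
Share of regions lost (red) or gained (blue) at the 7 genes, in percent (y axis), for 4 genotype comparisons (x axis) in each mark, with exact 95% intervals for counting error and black lines for the share over all regions of the genome. Of the 24 shares shown, H3K4me1 gains from Tet2-/- to Ep300Δ/ΔTet2-/- cells (11.1%) stood farthest below their genome line (23.4%).

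The plot of lost and gained shares sets the 24 shares beside their genome values. The regions of 1 window are neighbours and not independent, so the intervals may be too narrow. Among 24 intervals, some can also miss their genome value by counting error alone, and no interval was widened for their number.

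Most of the known partners of these repressors had acetylated promoters in every list. All 5 GFI partners (Kdm1a, Rcor1, Rcor3, Hdac1 and Hdac2, of the LSD1 and CoREST complex) had promoter H3K27ac in all 4 lists. Among 16 partners of the Ikaros family, 14 did, including the NuRD remodeler Chd4 and Crbn, which encodes the ubiquitin ligase receptor cereblon. Mta1, a NuRD subunit, had promoter H3K27ac in no list, and Sin3b, a corepressor scaffold, in all but Ep300Δ/Δ cells. Both had promoter H3K4me3 in all 4 lists. Over all 21911 coding genes, promoter H3K27ac was found in 10372, 9851, 10162 and 9446 in WT, Ep300Δ/Δ, Tet2-/- and Ep300Δ/ΔTet2-/- cells, and in all 4 lists in 8764.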

How the data were processed

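Peak lists were deposited for 12 of 20 libraries of Lin- bone marrow cells, 1 for each of 4 genotypes and 3 marks. H3 and H3K27me3 libraries were not analysed here. Per the methods, the authors used cutadapt 1.15 for trimming and BWA 0.7.13 for alignment to mm10, removed duplicates with Picard and called narrow peaks with MACS2 2.1.1.20160309 on pseudoreplicates of each library against H3, at a stated q of 0.05. Tool names and versions also stand in the submitters' processing notes. Each deposited row gives a score, a fold enrichment over H3 (a ratio), a −log10 p-value and a −log10 q-value. The deposited lists also held peaks with q over 0.05, 0 to 7 at the 7 genes per list. A Drosophila spike-in was added to the chromatin, but no value in the lists is scaled by it. Peaks were taken as deposited. Because folds of separate lists are not comparable, percentiles within a list were used, and, chosen after seeing the data, the number of stronger peaks. Read depth is not given in the lists, and intervals cover counting error only.

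The 2 lists of a comparison were merged, and a merged region without 1 bp of overlap in 1 list was lost or gained. Regions over 4 lists were merged likewise. Promoters were 3000 bp on each side of any transcript start of GENCODE M21, and sequences came from GRCm38.p6. For each member the rule named the promoter region of each mark, the distal H3K27ac region with the highest percentile, and every H3K27ac region outside promoters of other genes that was lost or gained with its strongest peak above the median of its list. Further regions and the H3K4me1 reading at starts were chosen after their values were seen. Of the B cell markers, 1 gene is not reported here. Members and lists were chosen with earlier results of these data known. RefSeq promoters matched 4 of 7 genes (Gfi1, Gfi1b, Ikzf1 and Ikzf5). Computation was done in Python 3.11.15 (pandas 2.3.3, pysam 0.24.0 and scipy 1.17.1), and figures were drawn with matplotlib 3.10.9. The overlap step, tested on simulated data, gave the same counts as bedtools 2.31.1 in 10 of 10 pairs of lists. With 1 library per genotype and mark no test was run and samples were grouped by genotype and mark labels. Alternatives were windows of 10 and 100 kb, a −log10 q of at least 5, lists of equal size, overlap over most of a region, a distance of 500 bp, regions above the median fold, regions nearest the member, promoters of 1000 bp and motif windows of 250 bp. Enforcing a q of 0.05, and cutting all 4 lists of a mark to equal size, were chosen after seeing the data. The cut kept the peaks with the lowest q, whereas the percentiles and the numbers of stronger peaks use fold enrichment.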

Additional observations from a re-analysis of the deposited data

Results flagged for a closer look

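In 8 cases the number of peaks at a gene changed in opposite directions on the 2 backgrounds. Each group was 1 library, so none of these differences was tested, and the changes are of 1 to 3 peaks. With Ep300 deletion, H3K27ac peaks at Gfi1 went from 7 to 5 on the WT background and from 4 to 5 on the Tet2-/- background, a difference of 3 between the changes. H3K4me3 peaks at Ikzf2 went from 10 to 7 and from 7 to 8, a difference of 4. H3K4me1 peaks at Ikzf4 went from 9 to 10 and from 12 to 11, a difference of -2. With Tet2 loss, compared in cells with and without Ep300, H3K4me1 peaks at Gfi1 went from 28 to 26 and from 16 to 17 (difference 3), and those at Gfi1b from 13 to 14 and from 12 to 10 (difference -3). H3K4me1 peaks at Ikzf3 went from 24 to 26 and from 16 to 14 (difference -4), H3K4me3 peaks at Ikzf2 from 10 to 7 and from 7 to 8 (difference 4), and H3K27ac peaks at Ikzf5 from 4 to 3 and from 2 to 3 (difference 2).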

How the results depend on the processing

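The shares of regions lost and gained depended most on how strong a peak had to be. Windows of 100 kb, the nearest coding start, overlap over most of a region and promoters of 1000 bp moved none of the shares pooled over the 7 genes beyond their counting interval. Of the counts of single genes, 58 moved with windows of 100 kb, 35 with the nearest coding start and 11 with overlap over most of a region. In what follows, genome shares under the same setting stand in brackets, and comparisons are in the order WT to Ep300Δ/Δ, Tet2-/- to Ep300Δ/ΔTet2-/-, WT to Tet2-/- and Ep300Δ/Δ to Ep300Δ/ΔTet2-/-. Counting only regions above the median fold, H3K27ac losses were 7.41% (12.9%), 12% (11.8%), 18.5% (11.0%) and 0.0% (8.82%), with gains of 0.0% (1.81%) in the first and 12.5% (4.16%) in the WT to Tet2-/- comparison. H3K4me1 losses were then 29.1% (23.8%), 28.0% (19.9%), 16.3% (16.1%) and 12.2% (15.4%), with gains of 13.8% (14.6%) in the first, and all 8 H3K4me3 shares were 0.0% (at most 0.137%). With a −log10 q of at least 5, H3K27ac losses were 28.6% (29.8%) from WT to Tet2-/- and 13% (16.4%) from Ep300Δ/Δ to Ep300Δ/ΔTet2-/-, gains in the latter 33.3% (25.2%), H3K4me1 losses after Ep300 deletion 48.3% (51.0%) and 47.1% (44.1%), and H3K4me3 gains 0.0% (6.69%) from WT to Ep300Δ/Δ. Lists of equal size gave H3K27ac losses of 21.4% (26.7%), 18.9% (23.5%), 32.6% (26.8%) and 6.25% (21.4%). Sharing peaks within 500 bp gave H3K27ac losses of 31.2% (26.3%) from WT to Tet2-/-, H3K4me1 losses of 28.4% (25.1%), 27% (21.3%) and 15.1% (18.7%) in the first 3 comparisons, H3K4me1 gains of 23.5% (18.0%) from WT to Tet2-/- and 14.8% (20.1%) from Ep300Δ/Δ to Ep300Δ/ΔTet2-/-, and H3K4me3 losses of 0.0% (7.05%) in the latter. The single H3K4me3 gain from WT to Ep300Δ/Δ was absent (0.0%) with 10 kb windows (11.1%) and with a q of 0.05 enforced (10.8%), an alternative chosen after seeing the data. Motif windows of 250 bp moved 6 of 10 motif shares (WT GFI, Ikaros, GATA and RUNX, and Tet2-/- GFI and Ikaros). The cause of these differences was not tested.

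By gene, the count of H3K27ac regions outside promoters of other genes in 4 lists of equal size, in WT, Ep300Δ/Δ, Tet2-/- and Ep300Δ/ΔTet2-/- cells, was 4, 4, 4 and 4 for Gfi1, 2, 1, 2 and 2 for Gfi1b, 9, 8, 10 and 11 for Ikzf1, 5, 6, 6 and 8 for Ikzf2 and 3, 0, 2 and 0 for Ikzf3. The excess of WT regions at Ikzf1 (21, 13, 11 and 11 as deposited) and Ikzf2 (12, 7, 8 and 8) was thus absent among the 18327 peaks of lowest q. For Ikzf3 (5, 4, 4 and 0) the Ep300Δ/Δ list joined the doubly deficient one at 0. Ranked by fold enrichment, some dropped regions would stay, such as Ikzf3 +0.528 kb in Ep300Δ/Δ cells (16039 stronger peaks). Others were Ikzf1 +40.7 kb in WT and Ep300Δ/Δ cells (16201 and 16227) and Ikzf2 +6.78 kb in WT cells (17236). No paired analysis was possible because each genotype and mark was 1 library. A region missing from a list was not called there, and at unknown depth this does not show that the mark is absent.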
